A study of Mus musculus with 8 samples.

Results

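A set of 10 genes commonly used to place a cell on the epithelial or the mesenchymal side were examined in mRNA-Seq libraries of Hepa 1-6 cells. They are the cadherins Cdh1 and Cdh2, the adhesion protein Epcam, the keratins Krt8 and Krt18, the intermediate filament Vim, the matrix protein Fn1, and the transcription factors Zeb1, Snai1 and Snai2. The genes were chosen by name, and 8 of the 10 were found among the 21915 genes with counts. Zeb1 and Snai2 were not analysed here. All 8 passed the filter on low counts, which kept 14142 genes.

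Hepa 1-6 (written Hepa 1.6 in the labels) is a mouse hepatoma line. KAP1, encoded by Trim28, is a corepressor recruited to DNA by KRAB zinc finger proteins. Control cells received an empty pLKO vector and Kap1 knockdown (KD) cells received the same vector with a short hairpin RNA against KAP1. Both were collected 5 days after transduction and, as the study's methods state, had been selected with puromycin, so that every library comes from transduced and selected cells. There were 2 control and 2 KD libraries of polyA RNA, among 8 samples in the series, and the remaining 4 are small RNA libraries that hold no counts for these genes. The labels number 1 library of each group as 2, and the unnumbered library was taken as replicate 1. Nothing in the labels says that the libraries came from separate cultures, so p-values measure only the spread between these libraries, which may be technical.

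Totals ranged from 41566888 to 53605115 counts per library. Trim28 itself stood at 456 and 575 CPM (read counts normalised to library size, here scaled by TMM, a factor for differences in RNA composition) in control replicates 1 and 2, and at 106 and 78.9 CPM in KD replicates 1 and 2. The libraries were checked against marker lists of liver cell types. Alb, Afp, Apob and Hnf4a were present in every library, whereas the hepatocyte genes Ttr and Apoa1 were below 0.5 CPM in all 4. All 5 endothelial markers were below 0.5 CPM in every library. Of the macrophage and leukocyte markers, Ptprc, Emr1 and Itgam were below 0.5 CPM, whereas Cd68 stood at 3.19 to 7.42 CPM and Csf1r at 0.892 to 3.22 CPM. The stellate cell genes Pdgfrb and Lum were below 0.5 CPM. The 7 stellate cell and fibroblast markers with counts summed to between 1232 and 1706 CPM, nearly all of it from Dcn. In these bulk libraries, fewer cells of a type and less RNA per cell cannot be told apart.

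Epithelial cells are held in sheets by E-cadherin (Cdh1) and carry a cytoskeleton of paired keratins, of which Krt8 and Krt18 are the pair of simple epithelia and of hepatocytes. Mesenchymal cells use N-cadherin (Cdh2), build their filaments from vimentin and lay down fibronectin, although hepatocytes also secrete fibronectin and carry N-cadherin. In the epithelial to mesenchymal transition, factors of the Snail and Zeb families bind short elements called E2-boxes and repress epithelial genes, with the Cdh1 promoter as the classical target.

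The sequences upstream of these genes are shown first, since the E2-box is the element that links the transcription factors of the list with their best known target. Windows of 250 bp before the annotated start were read from the mouse genome build NCBIM37 (mm9) and are written 5′ to 3′ on the strand of the gene, with each E2-box in capitals. The Cdh1 window is chr8:109127001-109127250 (plus strand), the Epcam window chr17:88035069-88035318 (plus strand), the Krt8 window chr15:101834774-101835023 (minus strand) and the Krt18 window chr15:101858397-101858646 (plus strand).
Cdh1: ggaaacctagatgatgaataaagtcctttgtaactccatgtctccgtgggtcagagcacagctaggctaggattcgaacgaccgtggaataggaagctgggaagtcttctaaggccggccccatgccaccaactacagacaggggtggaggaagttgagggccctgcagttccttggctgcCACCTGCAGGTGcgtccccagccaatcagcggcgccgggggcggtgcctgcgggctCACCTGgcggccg
Epcam: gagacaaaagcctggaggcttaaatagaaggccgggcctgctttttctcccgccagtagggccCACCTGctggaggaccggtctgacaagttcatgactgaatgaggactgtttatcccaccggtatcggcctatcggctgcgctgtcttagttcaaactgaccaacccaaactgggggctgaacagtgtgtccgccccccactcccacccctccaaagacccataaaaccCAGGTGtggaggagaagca
Krt8: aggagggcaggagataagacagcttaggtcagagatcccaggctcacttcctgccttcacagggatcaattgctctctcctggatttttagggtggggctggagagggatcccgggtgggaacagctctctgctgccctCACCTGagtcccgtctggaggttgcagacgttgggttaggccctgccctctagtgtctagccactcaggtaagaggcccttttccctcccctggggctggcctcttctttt
Krt18: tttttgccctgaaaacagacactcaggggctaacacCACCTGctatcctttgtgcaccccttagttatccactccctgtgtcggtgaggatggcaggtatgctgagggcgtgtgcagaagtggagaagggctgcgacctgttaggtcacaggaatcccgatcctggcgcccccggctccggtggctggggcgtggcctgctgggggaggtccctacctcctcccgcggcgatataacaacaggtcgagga

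The E2-box was searched as CACCTG on either strand, that is CACCTG or CAGGTG. Counted back from the annotated start, the Cdh1 window held 3 matches, at -69 to -64, at -63 to -58 and at -13 to -8. The first of these abuts the one after it on the opposite strand, which forms the run CACCTGCAGGTG. The Epcam window held 2 matches, at -187 to -182 and at -19 to -14. Krt8 held 1 at -111 to -106, Krt18 held 1 at -214 to -209, and Snai1 (chr2:167363445-167363694, plus strand) held 1 at -126 to -121. The windows of Vim and Fn1 held none, and the window of Cdh2 was not searched. An E2-box was thus found in 5 of 7 windows. Across 22380 windows of the same length, 17.0% held at least 1 and 2.1% held 2 or more. The GC-box GGGCGG was found in 3 of 7 windows (39.6% of all windows), CCAAT in 4 of 7 (35.0%) and TATAAA in 0 of 7 (12.3%), each on both strands. Such matches describe the letters of the windows and are not evidence of binding.

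The 8 genes lie on 6 chromosomes in mm9, and Krt8 (chr15:101827142-101834773, minus strand) and Krt18 (chr15:101858647-101862457, plus strand) are neighbours. Cdh1 spans chr8:109127251-109194146, Epcam chr17:88035319-88050446, Vim chr2:13495554-13504453 and Snai1 chr2:167363695-167368314, all on the plus strand. Fn1 (chr1:71632094-71699774) and Cdh2 (chr18:16747386-16967755) are on the minus strand. Exons of Fn1 overlap the annotated opposite-strand gene Apol7d, and whether counting used strand is not stated, so that a part of the Fn1 count cannot be assigned with certainty. Keratins form a multigene family, and the aligner was set to keep 1 location per read, so that reads matching near-identical copies could not be told apart either.

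Per kilobase of exon (RPKM, the CPM divided by the exon length), the order of the genes was led by the keratin pair. The level of Krt18 was 1287 RPKM on average (range over the 4 libraries 1020 to 1582), followed by Krt8 at 779 (586 to 969), Fn1 at 397 (344 to 459) and Vim at 155.5 (138 to 173). Snai1 (9.37 RPKM, 7.63 to 13.1), Cdh2 (9.13, 7.98 to 10.5) and Epcam (6.42, 4.20 to 8.08) came next. Cdh1 came last, at 0.0776 RPKM (0.055 to 0.0924). Among 14142 genes, Krt18 held rank 43 and Krt8 rank 79, Fn1 rank 170 and Vim rank 453, whereas Cdh1 held rank 13743. In 5 of the 7 neighbouring pairs of this order the ranges over the libraries were separate. The ranges of Snai1 and Cdh2 overlapped, as did those of Cdh2 and Epcam. Keratins and vimentin, the filaments of the epithelial and the mesenchymal state, were therefore both among the more abundant mRNAs of every library.

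**Figure D1:**
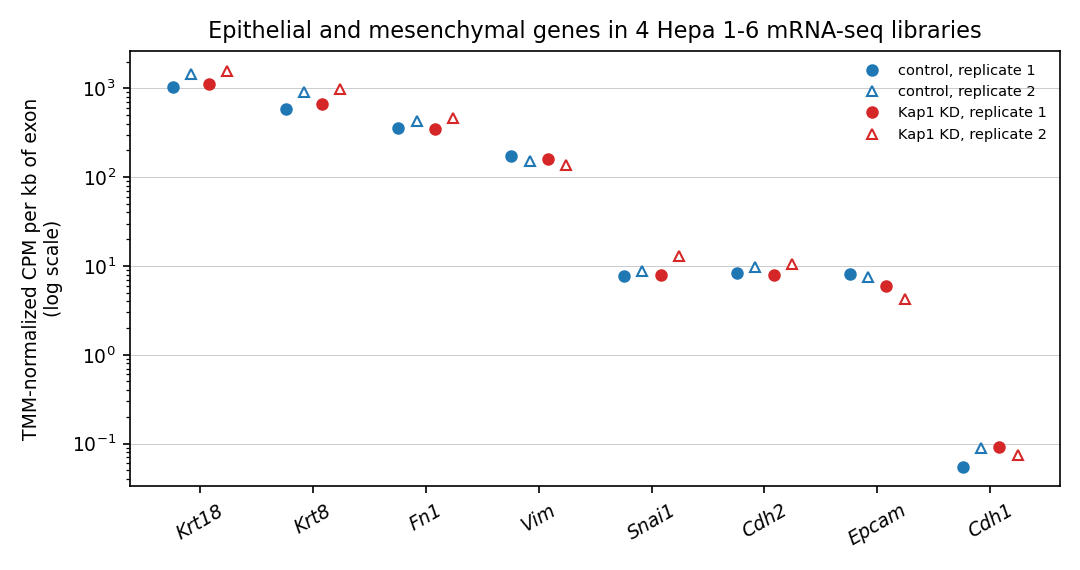
Level per exon length of the 8 genes, in RPKM on a log axis, with 1 point per library (2 control, 2 Kap1 KD). Krt18, Krt8, Fn1 and Vim lie above 100 RPKM in every library, and Cdh1 lies below 0.1 RPKM.

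Cdh1 was counted 14 and 20 times in control replicates 1 and 2, and 18 and 16 times in KD replicates 1 and 2. These counts lie close together in all 4 libraries, and a change of this gene could hardly be seen at such depth. The low level of E-cadherin led to the question of which cadherin was present. Cdh17, the liver-intestine cadherin, stood at 102 to 116 RPKM. Over the 11 cadherins on the list used, Cdh17 made up 90.2 to 92.2% of the summed per-length level, Cdh2 7.23 to 8.94% and Cdh1 0.0497 to 0.0836%. The per-length level of Cdh17 was 10.1 to 12.8 times that of Cdh2 and 1103 to 1848 times that of Cdh1. Cdh17 was above Cdh2, and Cdh2 above Cdh1, in each of the 4 libraries.

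**Figure D2:**
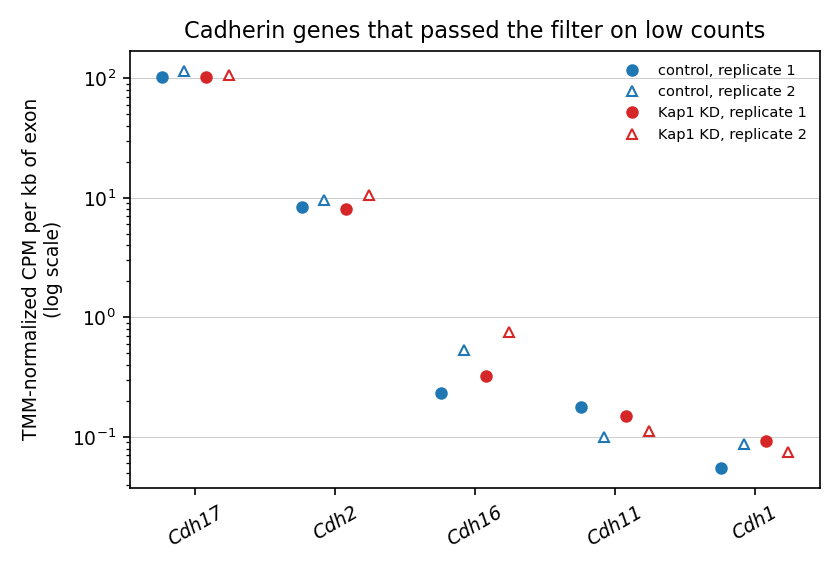
Level per exon length of the 5 cadherins that passed the filter on low counts, in RPKM on a log axis, with 1 point per library (2 control, 2 Kap1 KD). Cdh17 lies between 102 and 116 RPKM, above Cdh2 at 7.98 to 10.5 RPKM, and Cdh1 stays under 0.1 RPKM.

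The first comparison asked whether depletion of KAP1 changed these genes. By the quasi-likelihood test of edgeR (adjusted over all tested genes after Benjamini and Hochberg), 0 of the 8 were called at 1.5-fold and an adjusted p under 0.05, and so was 0.0% of the 14142 genes tested. An unadjusted p under 0.05 was reached by 185 genes (1.31%), none of them among the 8. DESeq2 called 3 genes, Trim28 included, and none of the 8. Even Trim28, lower by 2.48 ± 0.25 (SE) on the log2 scale, was not called by edgeR, where its adjusted p was 0.9999. A second fit carried the replicate number as a term besides the group, which left 1 residual degree of freedom. It called 4.46% of genes, Trim28 among them, 292 higher (2.06%) and 339 lower (2.4%). Of the 8 genes, it called 1, Epcam.

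Epcam stood at 16.5 and 15.2 CPM in control replicates 1 and 2, and at 12.1 and 8.57 CPM in KD replicates 1 and 2. Both KD libraries lay below both control libraries, with the lowest value in KD replicate 2. Epcam was the only one of the 8 whose groups did not overlap, where 20.3% of all genes showed this. Its log2 change was -0.44 in pair 1 and -0.82 in pair 2. The fit without the replicate term gave -0.61 ± 0.27 (SE, n = 2 per group) with an edgeR adjusted p of 0.9999 and an unadjusted p of 0.0712. With the replicate term it fell by 0.63 ± 0.11 (SE) in edgeR (adjusted p = 2.5e-07) and by 0.62 in DESeq2 (adjusted p = 0.00783). This call thus depends on the replicate term. An exact permutation test of 2 against 2 libraries cannot give a two-sided p below 0.333.

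The keratin pair changed little between control and KD. Krt8 stood at 1057 and 1619 CPM in control replicates 1 and 2, and at 1198 and 1749 CPM in KD replicates 1 and 2. Krt18 stood at 1427 and 2011 CPM in the controls and at 1557 and 2215 CPM in the KD libraries, in the same order. Control and KD values interleaved for both, with the replicate 2 libraries on top. The pair changes were 0.18 and 0.11 for Krt8, and 0.12 and 0.14 for Krt18, on the log2 scale. With the replicate term, their edgeR adjusted p-values were 0.0585 and 0.0932. With median-of-ratios size factors in that fit, Krt8 passed the adjusted p (0.0438 in edgeR) and Krt18 did not (0.0699). The ratio of Krt8 to Krt18, per length, stayed between 0.575 and 0.624 in the 4 libraries.

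On the mesenchymal side, Vim stood at 405 and 356 CPM in control replicates 1 and 2, and at 369 and 322 CPM in KD replicates 1 and 2. Its pair changes were -0.13 and -0.14. Each KD library was a little below the control of its number, while the groups overlapped. Fn1 stood at 2947 and 3596 CPM in the controls and at 2867 and 3834 CPM in the KD libraries, and its pair changes were -0.04 and 0.09. Cdh2 stood at 67.7 and 77.5 CPM in the controls and at 64.4 and 84.9 CPM in the KD libraries, with pair changes of -0.07 and 0.13. Both genes had pairs of opposite sign and overlapping groups, and the sign of their fitted change (0.03 for Fn1, 0.04 for Cdh2) turned when libraries were scaled by total counts. With the replicate term, 21.6% of all genes passed the adjusted p alone (10.1% higher, 11.5% lower). Vim did so in edgeR (log2 change -0.14, adjusted p = 0.0453) but not in DESeq2 (adjusted p = 0.360) nor in edgeR with median-of-ratios size factors (adjusted p = 0.0686). Cdh2 and Fn1 did not (edgeR adjusted p = 0.840 and 0.803).

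Snai1, the one Snail factor of the list with counts, stood at 12.4 and 14.4 CPM in control replicates 1 and 2, and at 12.8 and 21.2 CPM in KD replicates 1 and 2. KD replicate 2 was high, and the other 3 libraries lay close together. The pair changes were 0.05 and 0.56. With the replicate term, the log2 change of 0.31 had an adjusted p of 0.0148 in edgeR and of 0.269 in DESeq2, and it was under 1.5-fold. Without KD replicate 2, the fit with group alone gave -0.050. Cdh1, counted 14 to 20 times, had pair changes of 0.57 and -0.19, with 0.1 CPM added before log2. With 1 CPM added they were 0.18 and -0.06, and with 0.01 CPM added 0.73 and -0.23. Over the 8 genes, the sign was the same in both pairs for 5, against 71.0% of all genes. Whether the change differed between the pairs could not be tested, since no residual degree of freedom would remain.

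**Figure D3:**
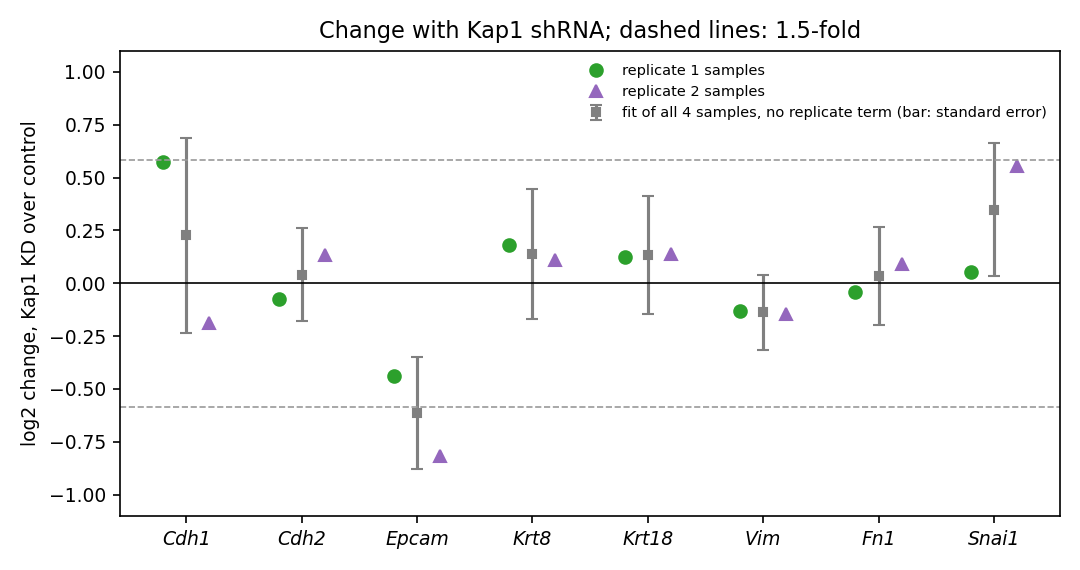
Log2 change in Kap1 KD against control for each gene, with a circle for pair 1 and a triangle for pair 2 (log2 of CPM plus 0.1), a grey square with its SE for the fit without the replicate term, and dashed lines at 1.5-fold. Epcam lies at -0.44 and -0.82, while Cdh1, Cdh2 and Fn1 have a point on each side of 0.

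The wider lists were read in the fit with the replicate term, since the fit without it called no gene. Of 31 epithelial genes tested, 0 were higher and 3 were lower, namely Epcam and the tight junction genes Cldn1 and Cldn2, that is 9.68% lower against 2.4% of all genes. Cldn1 was counted only 31 and 58 times in control replicates 1 and 2, and 12 and 30 times in KD replicates 1 and 2. Its groups overlapped in CPM. Cldn2 stood at 4.31 and 6.05 CPM in control replicates 1 and 2, and at 3.24 and 2.39 CPM in KD replicates 1 and 2. Both KD libraries were below both controls, and the log2 change was -0.87 ± 0.16 (SE; edgeR adjusted p = 1.89e-06). At the other end, the desmosomal gene Perp had a log2 change of 0.41, which is under 1.5-fold. The median over the 31 genes was -0.09, against -0.02 over all genes.

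Of 28 mesenchymal genes tested, 4 were higher (Col1a1, Mmp9 and Timp1 among them) and 1 was lower (Tpm2), that is 17.9% called against 4.46% of all genes. Col1a1 was at low counts, with 32 and 51 in control replicates 1 and 2, and 47 and 71 in KD replicates 1 and 2. Its edgeR adjusted p was 0.0326. Mmp9, a matrix protease, stood at 1.27 and 1.91 CPM in control replicates 1 and 2, and at 3.54 and 9.47 CPM in KD replicates 1 and 2. Both KD libraries were above both controls. Its log2 change was 1.95 ± 0.17 (SE; edgeR adjusted p = 3.33e-27). Tpm2, a tropomyosin of the contractile apparatus, fell by 0.72 ± 0.23 on the log2 scale (SE; edgeR adjusted p = 0.0115). The median over the 28 genes was 0.03.

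Of 12 transcription factors of the transition that were tested, 1 was higher (Snai3; 8.33%, against 2.06% of all genes) and 0 were lower. Snai3, another Snail family member, was counted 15 and 25 times in control replicates 1 and 2, and 22 and 56 times in KD replicates 1 and 2. The KD values in CPM were above those of both controls, but KD replicate 1 was only a little above control replicate 2. KD replicate 2 was the highest, and all values were at a low level (log2 change 1.13 ± 0.34 SE, edgeR adjusted p = 0.00673). Etv4 and Tcf4 marked the ends of this list at 1 CPM and above, with 0.45 and -0.44, both under 1.5-fold. Of 12 cadherins and catenins, 0 were called in either direction. Ctnnb1 (beta-catenin, the partner of cadherins at the membrane and effector of Wnt signalling) had a log2 change of -0.36 ± 0.06 (SE; edgeR adjusted p = 3.84e-09), again under 1.5-fold. Its values were 505 and 501 CPM in the controls, against 398 and 387 CPM in the KD libraries.

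Of 15 keratins and other intermediate filaments, 0 were higher and 1 was lower (6.67% called, against 4.46% of all genes), the peripherin gene Prph (log2 change -0.60 ± 0.13 SE, edgeR adjusted p = 9.55e-05). Of 21 fibronectin receptors and matrix partners, 0 were called, with Itgb6 (0.57) and Tgm2 (-0.46) at the ends. Of 23 TGF-beta pathway genes, 2 were higher (Ltbp1 among them) and 1 was lower, the decoy receptor gene Bambi, that is 13.0% of the list. Bambi stood at 1.40 and 1.49 CPM in the controls, and at 0.775 and 0.770 CPM in the KD libraries. The 2 KD values were close to each other and below both controls. Across 14118 genes with an exon length, the change in this fit had a median of 0.06 in the 20% of genes with the shortest exons and of -0.09 in the 20% with the longest. The part of this trend in the list medians was not tested.

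The hepatocyte markers moved in the same comparison. Of 7 tested, 3 were lower (Alb, Apob and Apoa1) and 0 were higher, that is 42.9% lower against 2.4% of all genes. A negative change in both pairs was seen for 7 of them, and for 5392 of all 14142 genes. Apoa1 was counted only 18 and 21 times in control replicates 1 and 2, and 5 and 8 times in KD replicates 1 and 2. Alb stood at 1580 and 1037 CPM in control replicates 1 and 2, and at 975 and 441 CPM in KD replicates 1 and 2. The 8 markers summed to 2489 and 2116 CPM in the controls and to 1743 and 1137 CPM in the KD libraries, most of it from Alb and Afp. The 5 biliary markers summed to 264 and 245 CPM in the controls and to 209 and 192 CPM in the KD libraries, with 0 called. Of 5 stellate cell and fibroblast markers tested, Col1a1 was higher. The part of these differences in the values of Epcam, which biliary cells also express, was not tested.

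The second comparison was between replicates 2 and 1, fitted with the shRNA as a term. By the same thresholds 0 of the 8 genes were called, against 26.5% of all genes (1284 or 9.08% higher, 2464 or 17.4% lower). Scaled by total counts, 847 were higher and 2957 lower. By the adjusted p alone, 7 of the 8 passed in edgeR, 5 higher and 2 lower in replicate 2, against 63.6% of all genes (31.5% higher, 32.1% lower). The adjusted p was thus passed by most genes tested in this fit. In DESeq2 with the same terms, the 2 lower ones, Vim and Epcam, did not pass it. Both replicate 2 libraries lay beyond both replicate 1 libraries for 6 of the 8 genes, against 72.7% of all genes. DESeq2 called 1 of the 8, Krt8. Without control replicate 2, the fit carried the replicate number alone and set KD replicate 2 against both replicate 1 libraries. It gave edgeR log2 differences of 0.64 for Krt8, 0.76 for Snai1 and -0.73 for Epcam, which include the change with Kap1 shRNA.

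The keratin pair differed most. From the values given above, both replicate 2 libraries exceeded both replicate 1 libraries for Krt8 and for Krt18. Krt8 was higher by 0.61 within control and by 0.55 within KD, and the fitted log2 difference was 0.58 ± 0.06 (SE, n = 2 per replicate, edgeR adjusted p = 1.4e-21). This is 1.495-fold, just under the threshold. Krt18 was higher by 0.49 and 0.51, with a fitted 0.50 ± 0.06 (edgeR adjusted p = 2.0e-16). Vim was lower in replicate 2 (-0.18 and -0.20, fitted -0.19 ± 0.05, adjusted p = 7.7e-04 in edgeR and 0.0520 in DESeq2). The per-length ratio of Krt8 to Vim went from 3.38 to 5.88 within control and from 4.20 to 7.02 within KD.

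Fn1, Cdh2 and Snai1 were also higher in replicate 2. Fn1 was higher by 0.29 within control and by 0.42 within KD (fitted 0.35 ± 0.06 SE, edgeR adjusted p = 9.8e-09). Cdh2 was higher by 0.19 and 0.40 (fitted 0.30 ± 0.08, adjusted p = 5.7e-04 in edgeR). Mesenchymal genes thus stood on both sides, with Vim lower and Fn1 and Cdh2 higher. Snai1 had differences of 0.21 and 0.72 (fitted 0.47 ± 0.10, edgeR adjusted p = 1.4e-05). Epcam had -0.12 and -0.50 (fitted -0.30 ± 0.11, adjusted p = 0.0112 in edgeR and 0.161 in DESeq2). For both, the difference within KD was larger than within control. Without KD replicate 2, a fit on replicate number alone gave 0.10 for Epcam, against -0.12 within control. That fit has no shRNA term and sets control replicate 2 against both replicate 1 libraries. Cdh1 had 0.52 and -0.24 (fitted 0.18 ± 0.41, edgeR adjusted p = 0.712). When the replicate number was fitted alone, Krt8 (adjusted p = 0.011), Krt18 (0.0149) and Fn1 (0.0335) passed in edgeR, against 35.7% of all genes (15.9% higher, 19.7% lower), and Cdh2, Snai1, Vim, Epcam and Cdh1 did not. With 1 library left out as well, Krt8 and Krt18 each passed in 3 of 4 fits (not without control replicate 1). Cdh2, Fn1, Snai1 and Epcam each passed in 1 of 4 (without control replicate 2), and Vim and Cdh1 in 0 of 4.

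**Figure D4:**
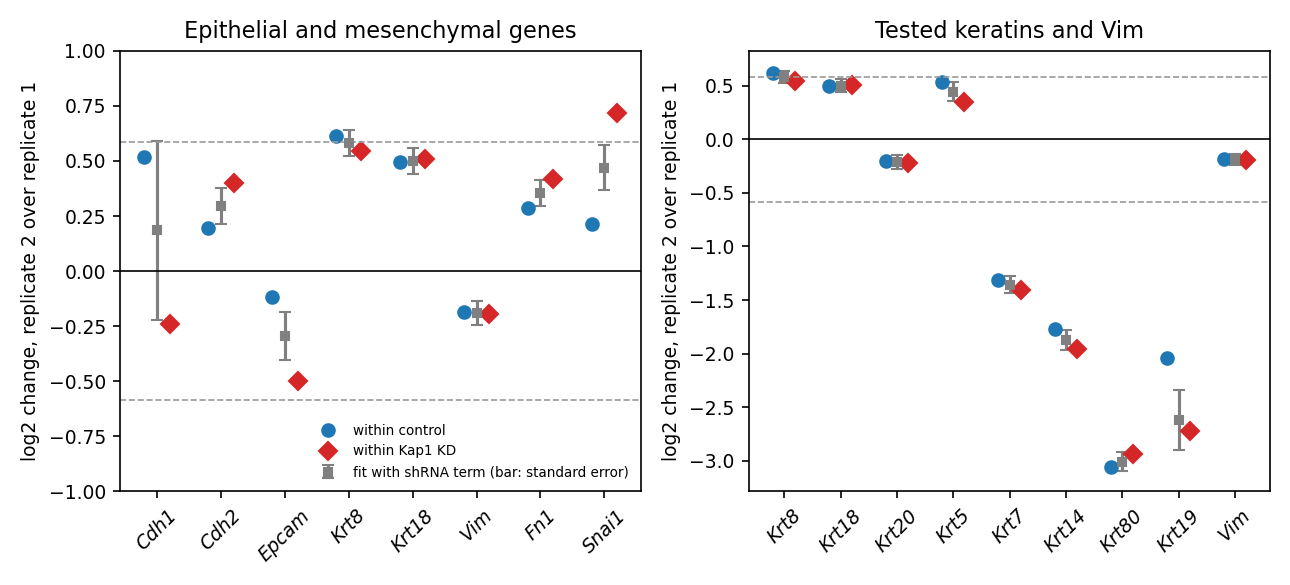
Log2 difference of replicate 2 from replicate 1, with a circle within control and a diamond within Kap1 KD (log2 of CPM plus 0.1), a grey square with its SE for the fit with the shRNA term, and dashed lines at 1.5-fold, for the 8 genes (left) and the tested keratins with Vim (right). Krt8 (0.61 and 0.55) and Krt18 (0.49 and 0.51) have points close to each other, whereas Snai1 (0.21 and 0.72) and Epcam (-0.12 and -0.50) have points apart, and Krt80 lies lowest on the right, with a fitted -3.01.

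Some other keratins went the opposite way. Of 15 keratins and other intermediate filaments tested, 0 were higher and 4 were lower in replicate 2, namely Krt80, Krt19, Krt14 and Krt7. This is 26.7% of the list, close to the 26.5% called among all genes. Krt80, an epithelial keratin, stood at 106 and 96.8 CPM in replicate 1 of control and KD, and at 12.6 and 12.5 CPM in replicate 2. Its log2 difference was -3.01 ± 0.09 (SE; edgeR adjusted p = 4.58e-241), and its control and KD values were alike within each replicate. Krt14 stood at 31.1 and 33.3 CPM in replicate 1, and at 9.03 and 8.53 CPM in replicate 2. Krt7, a keratin of bile duct cells, stood at 83.0 and 66.5 CPM in replicate 1, and at 33.4 and 25.1 CPM in replicate 2. Krt19, its companion in bile ducts, was low throughout, with 124 and 90 counts in replicate 1 and 23 and 11 counts in replicate 2. Krt14 and Krt7, with Elf3 below, were picked after their values were seen.

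Of 31 epithelial genes, 3 were higher (Cldn1, Cldn3 and Cldn4) and 5 were lower (Krt19, Krt7, Elf3, Itga6 and Dsg2) in replicate 2, that is 25.8% against 26.5% of all genes. Cldn4, a claudin of tight junctions, stood at 30.8 and 29.9 CPM in replicate 1, and at 58.7 and 48.7 CPM in replicate 2. Elf3, an epithelial ETS factor, stood at 39.8 and 31.2 CPM in replicate 1, and at 13.2 and 10.4 CPM in replicate 2. Krt8 and Krt18, which are on the same list, differed in the direction of the claudins.

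Of 28 mesenchymal genes, 7 were higher (Col6a1, Mmp9, Cyr61, Ctgf, Col1a1 and Col4a1 among them) and 1 was lower (Col3a1) in replicate 2. Of this list 28.6% were called, against 26.5% of all genes, and 25.0% were called higher, against 9.08%. Col6a1, a chain of collagen VI, stood at 5.03 and 4.84 CPM in replicate 1, and at 18.1 and 16.6 CPM in replicate 2, a log2 difference of 1.82 ± 0.12 (SE; edgeR adjusted p = 9.6e-50). Its control and KD values were alike. Dcn was at the lower end of this list, with -0.42 ± 0.06. The median over the 28 genes, Cdh2 and Fn1 among them, was 0.32, against -0.00 over all genes. The 8 genes had the same median. Among transcription factors Snai3 was higher and Tcf4 lower, of 12 (16.7% called, against 26.5% of all genes). Among cadherins and catenins Cdh16 was higher, of 12 (8.33% called). It stood at 0.772 and 1.08 CPM in replicate 1 and at 1.75 and 2.52 CPM in replicate 2.

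Of 21 fibronectin receptors and matrix partners, 3 were higher (Fbln1, Ilk and Sdc1) and 0 were lower. This is 14.3% called, against 26.5% of all genes (9.08% higher, 17.4% lower). Fbln1, a fibronectin-binding matrix protein, had 1.05 ± 0.09, whereas the integrin subunit gene Itgb1 had -0.37 ± 0.06, under 1.5-fold. Of 23 TGF-beta pathway genes, 3 were higher (Ltbp1 and Tgfb1 among them) and 3 were lower (Tgfbr1, Bmpr1a and Skil). This is 26.1% of the list, close to the share among all genes. Tgfbr1, a receptor of the pathway, stood at 39.5 and 32.2 CPM in replicate 1 and at 18.3 and 16.9 CPM in replicate 2. Of 7 hepatocyte markers tested, Hnf4a was higher and Alb lower in replicate 2 (28.6% called, near the share among all genes). Of 5 biliary markers tested, Krt19 and Krt7 were lower and 1 was higher (60.0% called). Of 5 stellate cell and fibroblast markers tested, Col1a1, at low counts, was higher, and Col3a1 and Pdgfra were lower (60.0% called). Macrophage and leukocyte markers summed to 5.42 and 4.46 CPM in replicate 1 and to 10.1 and 10.0 CPM in replicate 2. Of 3 tested, 2 were higher, Cd68 (log2 difference 0.94) and Csf1r (1.45), that is 66.7% higher against 9.08% of all genes. Across 14118 genes with an exon length, the replicate difference had a median of 0.05 in the 20% of genes with the shortest exons and of -0.18 in the 20% with the longest. The part of this trend in the values of Krt8 and Krt18, whose exons sum to 1805 and 1400 bp, was not tested.

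Genes with the profile most like those of Cdh1 and Vim were then listed, by the Euclidean distance of log2 CPM centred over the 4 libraries. For Cdh1 the nearest of 11813 genes were Fbn1 (distance 0.036), Trpm6 (0.088) and SNORA62 (0.11), and 2 genes lay within 0.1. For Vim they were Uaca (0.018) and Tsnax (0.022), and 249 of 11812 genes lay within 0.1. The Cdh1 profile rests on 14 to 20 counts per library and on the 0.1 CPM added before log2, so no likeness of genes is read from it. With 4 libraries such distances are a description of these values only.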

How the data were processed

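PolyA RNA of Hepa 1-6 cells was sequenced as 100 bp single-end reads. The table deposited by the authors holds raw counts, in whole numbers, by Ensembl gene; the submitters' processing notes list TopHat2 2.0.11, HTSeq 0.6.1 and mm9. By the study's methods, TopHat aligned reads to mm9 in its sensitive mode, keeping 1 location per read without new junctions, and HTSeq-count counted genes. Gene names came from an mm9 annotation, which matched 21806 of 21915 identifiers. The genes and all lists were chosen with earlier results of these data known. Named list genes are the largest increase and decrease at a mean of at least 1 CPM, Trim28 and the genes counted as called. The values of some of these genes are not reported here.

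Counts were filtered with filterByExpr, scaled by TMM and tested with edgeR 4.0.16 (R 4.3.3; glmQLFit and glmQLFTest, Benjamini-Hochberg over all tested genes). Standard errors were derived from the F statistic. The call thresholds, 1.5-fold and an adjusted p under 0.05, follow the study. The Kap1 comparison was fitted on group alone, and the replicate comparison on group and replicate number. With a library left out, the replicate comparison was fitted on replicate number alone. Pair changes used log2(CPM + 0.1). RPKM is TMM-scaled CPM per kilobase of exon. Scripts were tested on simulated counts. Alternatives were DESeq2 1.42.0, other scalings and filters, 1 or 0.01 CPM added in the pair changes, the replicate block, and leaving out each library. The deposited small RNA counts were not used.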

Additional observations from a re-analysis of the deposited data

How the results depend on the processing

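The Kap1 comparison turned on the replicate block. The replicate numbers are not stated to mark a shared culture or day, and deviations of same-numbered libraries from their group means had a correlation of 0.80 over genes. Without the block edgeR called 0 genes, as it did with other scalings, without the filter and by adjusted p alone, and DESeq2 called 2 higher and 1 lower. With the replicate block edgeR called 292 higher and 339 lower, with median-of-ratios size factors 295 and 314, and with total counts 238 and 402, while DESeq2 called 106 and 121. In each of these 4 fits with the block 1 of the 8 genes was called, Epcam. Leaving out each library gave 2 to 45 higher and 1 to 20 lower calls, both highest without KD replicate 1, and 0 of the 8 genes.

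With group alone, log2 changes without 1 library ranged from -0.079 to 0.62 for Cdh1, -0.16 to 0.23 for Cdh2, -0.15 to 0.50 for Krt8, -0.14 to 0.42 for Krt18, -0.18 to 0.23 for Fn1 and -0.050 to 0.66 for Snai1. These signs turned without KD replicate 2 or control replicate 1. Vim ranged from -0.24 to -0.033 and Epcam from -0.88 to -0.37, each nearest 0 without KD replicate 2. With total counts Cdh2 had -0.013 and Fn1 -0.018, and with the block as well -0.018 and -0.021. The pair change of Krt8 with total counts was 0.04 in pair 2, and those of Krt18 were 0.10 and 0.06.

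In the replicate comparison, total counts gave 847 genes higher, and adjusted p alone 4450 higher and 4540 lower, with 7 of the 8 genes. DESeq2, median-of-ratios size factors and no filter called 1 of the 8 each, Krt8, at a log2 difference of 0.59. Leaving out each library gave 355 to 1670 higher, 977 to 2440 lower and 0 to 3 of the 8. The lowest counts of genes came without control replicate 1, and higher calls also fell to 774 and 768 without KD replicate 1 and KD replicate 2. The differences ranged from -0.18 to 0.57 for Cdh1, -0.73 to 0.10 for Epcam, 0.20 to 0.76 for Snai1 (lowest without KD replicate 2, highest without control replicate 2) and -0.25 to -0.11 for Vim (nearest 0 without KD replicate 2). The fits with a library left out carried the replicate number alone, and in each of them a replicate held only control or only KD cells. Their differences thus include the change with Kap1 shRNA. The part of that change in these shifts was not tested. With 14 to 20 counts of Cdh1 per library, only large changes of it could be seen.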
